A study of Zea mays with 10 samples.

Results

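Transcript levels in maize seedlings in the middle of the subjective afternoon were compared with those near the end of the subjective night, 12 h apart on the circadian cycle. The comparison takes 4 of the 10 arrays analysed here. The afternoon side is ZT8 and ZT32, both at 8 h of subjective time, and the late night side is ZT20 and ZT44, both at 20 h. ZT is the time in hours after the onset of constant light, so each side holds one array of the first day in constant light and one of the second. The rule asks which transcripts differed in the same direction on both days. It uses the time points alone and no measured value.

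The plants were seedlings of the inbred line B73, which supplied the maize reference genome. They grew under alternating 12 h of light and 12 h of darkness, which sets the clock, and then stayed in continuous light, so no array of either side was sampled in darkness. Whole aerial tissue was collected, and the RNA hybridized to each array came from pooled samples of several plants. Each time point has 1 array. Pooling leaves the spread between plants unmeasured, and p-values therefore rest on how far one day differed from the other. In bulk tissue of this kind, fewer cells of a type and less RNA per cell cannot be told apart. Of the other 6 arrays, ZT0, ZT4, ZT24 and ZT28 entered the fit to measure that spread. ZT36 and ZT40 also entered it, but their hours were sampled on a single day, so they add nothing to the spread. All 6 also show where a transcript peaked. ZT12 and ZT16 are not analysed here.

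The plant clock is a network of transcription factors that repress one another in turn. In Arabidopsis, MYB factors of the CCA1, LHY and REVEILLE family are high around dawn, pseudo-response regulators follow through the day, and GIGANTEA and the evening complex, which includes LUX (also called PHYTOCLOCK 1), are high around dusk. Outputs of this network include light harvesting, starch turnover, pigment synthesis, water transport and the timing of flowering. Subjective afternoon and late night lie on opposite sides of the cycle, so a transcript that peaks at dawn or at dusk can differ little between them. Gene roles given below come from Arabidopsis unless a maize gene is named, and names come from annotation tables and from the study's function assignments. The part of those assignments held here is weighted to transcripts that the study picked as cycling on these same hybridizations, so the named genes are not an even sample of the array.

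Of 17555 maize probe sets, 12511 reached a signal of 50 on 3 or more of the 10 arrays and were tested. Signals are the intensities the authors deposited, on a linear scale. No probe set passed limma's test after Benjamini-Hochberg adjustment at 0.05, so 0 were called higher in the afternoon (background 0%) and 0 lower (background 0%), with a smallest adjusted p of 0.378. At 0.05 without adjustment, 596 probe sets were higher in the afternoon, a background of 4.76%, and 931 were lower, a background of 7.44%. That split depended on scaling: median centring gave 925 higher and 526 lower, and quantile normalization gave 676 and 680. These counts also rested on single arrays. They were 145 and 302 without ZT8, 91 and 250 without ZT20, and 1085 and 1154 without ZT44, with 0 adjusted calls each time. In simulated data of the same design, 51.5% of probe sets given a log2 difference of 1 were recovered, and 90.4% of those given a difference of 2. The simulated differences were equal on both days and the noise was independent between probe sets. Measured differences varied between the days, so these shares need not hold for them. An exact permutation test of 2 arrays against 2 cannot go below 0.333 and was not used for single genes. All values below are therefore measured differences that did not pass the test, and are given as levels.

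Both days pointed the same way for 62.4% of the tested probe sets: 2973 (23.8%) were higher in the afternoon on both days and 4828 (38.6%) were lower on both. That lean depended on scaling, since after quantile normalization the counts were 3697 higher and 3949 lower. For 2219 probe sets both afternoon arrays lay above both late night arrays, a background of 17.7%, and for 3611 they lay below, a background of 28.9%. Across probe sets, which are not independent replicates, the day 1 and day 2 differences correlated with r = 0.317 as deposited and 0.315 after quantile normalization. The first day carried the larger differences. Its SD over probe sets was 0.459 on the log2 scale against 0.255 on the second day, and the day 1 difference was the larger one in 66.8% of tested probe sets.

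Few probe sets differed 2-fold on each day. At least 2-fold on both days, 11 probe sets were higher in the afternoon, a background of 0.0879%, and 4 were lower, a background of 0.032%. On day 1 alone 263 probe sets were at least 2-fold higher and 201 lower, and on day 2 alone 27 and 39. At 1.5-fold on both days, 68 were higher, a background of 0.544%, and 65 lower, a background of 0.52%. Of the 11, 6 have a gene name or function: a DNA repair protein, a pair of DNAJ proteins, the transcription factor bZIP111, the starch synthase GBSSIIa and the aquaporin TIP4-1. The other 5 have none here, and neither has any of the 4 lower probe sets. A pair of those 5 carry the identifier of a single target, so the 11 are not all separate transcripts. In 1 of the 11 and 1 of the 4, both arrays of the lower side were under the signal minimum of 50.

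**Figure D1:**
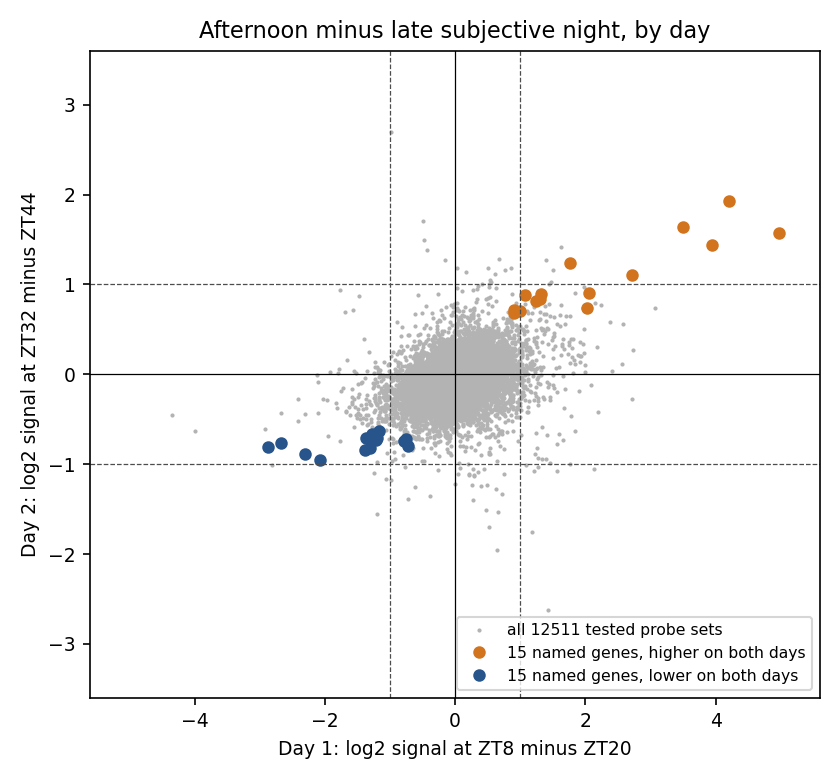
Each point is one probe set, with the log2 signal difference ZT8 minus ZT20 on the horizontal axis and ZT32 minus ZT44 on the vertical axis. Grey points are all 12511 tested probe sets, coloured points are the 15 named genes in each direction and dashed lines mark 2-fold. The cloud is wider along day 1 than along day 2, and the named higher genes reach a log2 difference of 4.98 on day 1 but 1.93 on day 2.

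The largest differences in favour of the afternoon on both days were in transcripts for a DNA repair enzyme, chaperone partners and a bZIP factor. The named genes here are the 15 in each direction whose smaller same-day difference was largest, so their differences are a description of how they were picked. GRMZM2G114592 encodes an HhH-GPD protein, a family of base excision repair glycosylases that remove damaged bases from DNA. Its signal was 3289 at ZT8, 177.8 at ZT20, 1176 at ZT32 and 309.6 at ZT44. The afternoon array was thus higher on each day, 18.5-fold and then 3.8-fold, a mean log2 difference of 3.07 ± 0.57 (SE, 2 arrays a side, limma adjusted p = 0.378). At ZT4 it already stood at 2416, and at ZT28 at 641.2.

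DNAJ proteins are co-chaperones that pass unfolded clients to HSP70 and stimulate its ATPase. The DNAJ transcript GRMZM2G399136 read 1490 at ZT8, 131.8 at ZT20, 603.9 at ZT32 and 193.2 at ZT44, 11.3-fold and 3.13-fold higher in the afternoon. The second, GRMZM2G059502, read 481.9, 31.13, 152.3 and 56.32 in the same order, 15.5-fold and 2.71-fold. Both profiles had their highest array at ZT8 and their lowest at ZT20, as the repair protein did. The ZT20 value of the second gene lies under the signal minimum, so its day 1 fold rests on a dim array.

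bZIP111, assigned to BZO2H3, is a leucine zipper transcription factor of a class that responds to sugar and energy supply in Arabidopsis. It went from 1642 at ZT8 to 52.06 at ZT20 and from 344 at ZT32 to 115.5 at ZT44. The mean log2 difference was 3.28 ± 0.82 (SE, limma adjusted p = 0.378), the largest of all tested probe sets, with a day 1 fold of 31.5 and a day 2 fold of 2.98. Without ZT8 it was 1.64. The second day peaked at ZT36 with 608.5, one sampling interval after ZT32.

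GBSSIIa encodes a granule-bound starch synthase that makes amylose in leaves and other tissues outside the endosperm. Signals were 269.5 at ZT8, 79.26 at ZT20, 259.1 at ZT32 and 109.6 at ZT44. The afternoon arrays were nearly equal on the 2 days, while the highest array of all was ZT4 at 783.2. A galactinol synthase, GRMZM2G165919, which starts the raffinose family of soluble sugars, read 1770, 838.8, 2193 and 1191 in the order ZT8, ZT20, ZT32, ZT44. Here the fold was alike on the 2 days, 2.11 and 1.84, and the highest array was ZT32.

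Both aquaporins among these genes are tonoplast intrinsic proteins, channels that carry water and small solutes across the vacuolar membrane. TIP4-1 read 1724 at ZT8, 262.2 at ZT20, 1289 at ZT32 and 596.1 at ZT44, and TIP1-2 read 299, 125.5, 151.8 and 86.68. For TIP4-1 the arrays of the first morning were far below every other, at 14.23 in ZT0 and 32.04 in ZT4, and its SE was 1.02 on a mean log2 difference of 1.91 (limma adjusted p = 0.47). The dimmer TIP1-2 had an SE of 0.29 on 1.03.

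The remaining named genes were 1.6-fold to 1.87-fold higher on day 2, and 1.87-fold to 4.14-fold on day 1. They include a class 3 lipase, GRMZM2G353444, at 1970, 788.7, 1630 and 880.3. A rhodanese-like protein, GRMZM2G052610, of a family that transfers sulfur, stood at 4384, 1776, 3401 and 1902 on those arrays, but at 205 in ZT0. In both, the 2 afternoon arrays stood clear of the 2 late night arrays. The Nudix hydrolase GRMZM2G175816, assigned to NUDT8, a class that cleaves nucleoside diphosphate derivatives, read 527.8, 130.3, 334.8 and 199.8. U2AF35B is the small subunit of the splicing factor that recognizes the 3′ splice site, and read 224.9, 113.5, 228.7 and 140.3. A peroxisomal membrane protein (GRMZM2G011269), a protein annotated only as related to dentin sialophosphoprotein (GRMZM2G093096) and the light-harvesting protein LHB1B2 complete the 15. Adjusted p over the 15 ran from 0.378 to 0.601.

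**Figure D2:**
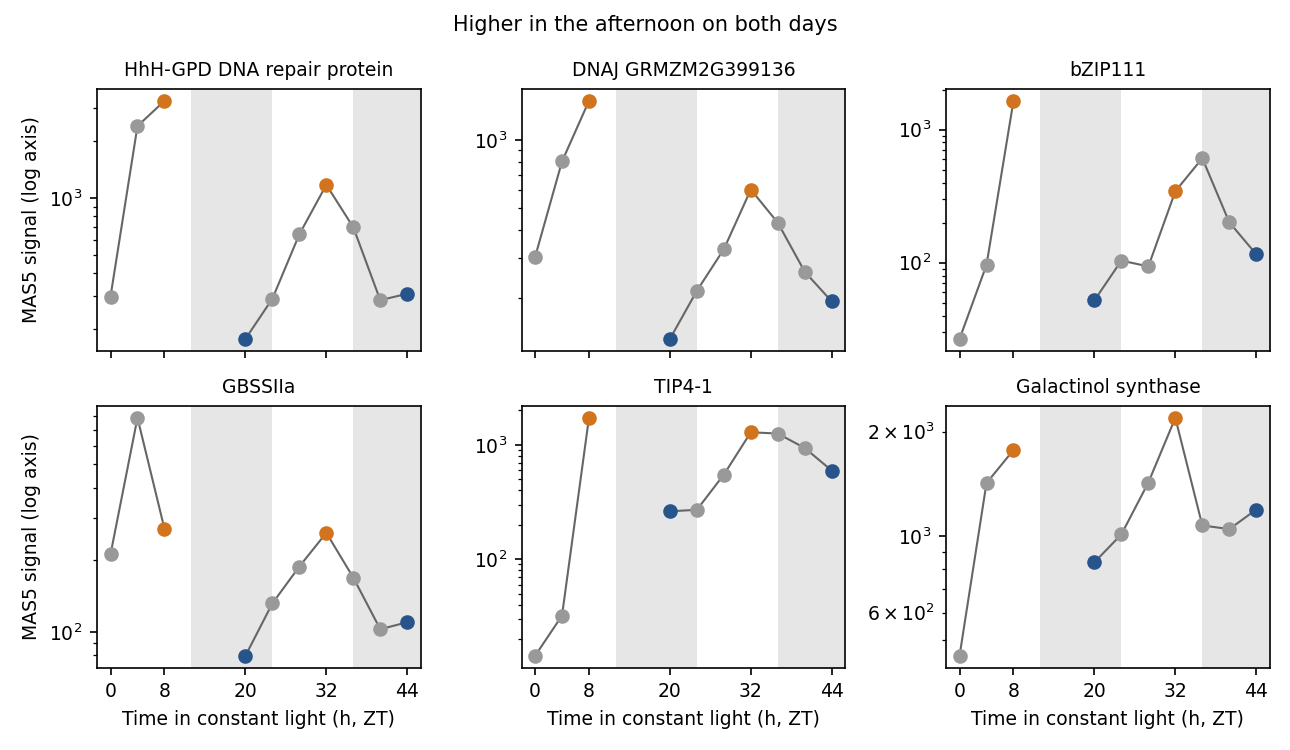
MAS5 signal on a log axis against hours in constant light for 6 genes that were higher in the afternoon on both days, 1 array per point, with subjective night shaded. Orange points are ZT8 and ZT32, blue points ZT20 and ZT44 and grey points the other 6 arrays; ZT12 and ZT16 are absent, and every orange point lies above both blue points in its panel.

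On the late night side, 2 of the 15 named genes encode enzymes of carotenoid synthesis, psy2 and zds1. Phytoene synthase makes the first committed carotenoid precursor, and psy2 is the maize copy known for its role in green tissue. Its probe set read 109.4 at ZT8, 463.3 at ZT20, 219 at ZT32 and 424 at ZT44, so late night was 4.24-fold higher on day 1 and 1.94-fold on day 2. A second probe set for psy2, brighter, read 960.1, 1648, 1248 and 1555, which is 1.72-fold and 1.25-fold. The probe sets thus gave one direction and different sizes, with mean log2 differences of -1.52 ± 0.27 and -0.55 ± 0.15 (SE). The 2 other carotenoid enzymes shown come from the pathway list. Next after phytoene synthase is phytoene desaturase, pds1, which read 943.6, 1844, 1231 and 1722. Zeta-carotene desaturase, the enzyme lost in vp9 mutants, read 303.2, 785.1, 389.6 and 636, 2.59-fold and 1.63-fold higher late at night. The beta-carotene hydroxylase crtRB1, which turns beta-carotene into zeaxanthin, read 1024, 3011, 1629 and 2446. All 4 enzymes were lower in the afternoon on both days without overlap, beside 28.9% of all tested probe sets. The way the 4 were picked largely fixes this.

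Plastid quinones share part of that biochemistry, since phytoene desaturation passes electrons to plastoquinone. The enzyme hppd1, 4-hydroxyphenylpyruvate dioxygenase, makes the precursor of plastoquinone and tocopherol. It read 251.6 at ZT8, 1596 at ZT20, 879.8 at ZT32 and 1499 at ZT44. The late night values were close on the 2 days, while the afternoon of day 2 was higher than that of day 1, so the fold went from 6.35 to 1.7. Zeaxanthin epoxidase (GRMZM2G127139), which acts after crtRB1, went the other way at 2030, 1356, 2092 and 1667, with a mean log2 difference of 0.45 ± 0.29.

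Genes of chlorophyll synthesis shared no direction. Protochlorophyllide oxidoreductase, which needs light to make chlorophyllide, was higher in the afternoon in both of its genes. GRMZM2G084958 read 3654, 1281, 2102 and 1532, and GRMZM2G073351 read 4052, 2337, 2549 and 2148. Chlorophyll synthetase (GRMZM2G162672) was lower on both days without overlap, at 1747, 2198, 1884 and 2135. The glutamyl-tRNA reductase HEMA1 (GRMZM2G107402) and the magnesium chelatase subunit oy1 were higher on day 1 and lower on day 2. These genes, and the epoxidase above, fall outside the naming rule and were chosen after their values were seen. Of 14 tested genes in the list for chlorophyll and carotenoid synthesis, 5 were higher (35.7%) and 7 lower (50%) on both days, beside 23.8% and 38.6% of all tested probe sets. At 0.05 without adjustment, 2 were higher (both oxidoreductases) and 4 lower (the carotenoid enzymes above, through the brighter psy2 probe set), beside 4.76% and 7.44%. The median log2 difference was -0.04, equal to the -0.04 over all tested probe sets.

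Enzymes of starch breakdown and synthesis are described next. The alpha-amylase AC207628.4, assigned to AMY3, cuts internal bonds of starch in the plastid, and its 4 arrays read 140.6 at ZT8, 1036 at ZT20, 589.1 at ZT32 and 1032 at ZT44. Late night was steady over the 2 days, and the first afternoon was the low point, giving 7.36-fold and 1.75-fold. A starch branching enzyme (GRMZM2G073054, SBE2.2) read 1002, 2422, 1415 and 2242, and starch synthase 2 (GRMZM2G126988) read 269.6, 413.8, 304.8 and 421.7. The debranching enzymes iso2, at 204, 318.6, 286.6 and 369.5, and isoamylase 1 (GRMZM2G138060), at 48.62, 145.3, 97.44 and 116.1, lay on the same side. Isoamylase 1 is dim at ZT8 and was chosen after its values were seen. Of 31 tested starch and sucrose genes, 5 (16.1%) were higher and 19 (61.3%) lower in the afternoon on both days, beside 23.8% and 38.6% of all tested probe sets. At 0.05 without adjustment, 1 was higher, GBSSIIa, and 9 lower, beside 4.76% and 7.44%. The median log2 difference was -0.21 as deposited and -0.16 after quantile normalization.

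CONSTANS-like genes encode B-box zinc finger proteins, and CONSTANS itself promotes flowering in long days in Arabidopsis. The maize gene conz1 read 117.5 at ZT8, 194.8 at ZT20, 132.9 at ZT32 and 232.2 at ZT44. It was the only one of the 30 named genes whose day 2 difference was the larger, with late night 1.66-fold and then 1.75-fold higher. COL5, assigned to Arabidopsis COL9, read 139.8, 689.1, 369.5 and 683.4, while its other COL9 match, GRMZM2G013398, read 25.43, 126.1, 53.91 and 73.15. COL10 read 164.4, 236.8, 123.6 and 172.5, so its groups came close to touching between the days. The lowest array of all 4 was ZT4, at 91.15, 93.71, 18.35 and 84.54 respectively.

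Of the other lower genes, 3 act in protein folding, its control or protein turnover. The chaperone HSP70 (GRMZM2G428391) read 402.8 at ZT8, 1001 at ZT20, 512.5 at ZT32 and 907.7 at ZT44, a mean log2 difference of -1.07 ± 0.14 (SE). It had the lowest p of the named genes, 9.51e-05 before adjustment and 0.378 after (limma). The heat shock factor GRMZM2G165272, assigned to HSFB2A, a class that lacks the usual activation domain, read 108.4, 253.4, 137 and 227.5. FTSH11 is a membrane-bound protease of organelles, and read 288.1, 483.8, 304.6 and 502.7 with nearly equal folds of 1.68 and 1.65.

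Amino acid metabolism and nutrient signalling are represented by 3 genes. The ferredoxin-dependent glutamate synthase fgs1, which turns glutamine and oxoglutarate into glutamate, read 1127, 2530, 1446 and 2237. A bifunctional lysine-degrading enzyme, lkrsdh1, read 255.3, 585.4, 410.9 and 672.9. The growth kinase TOR, which couples nutrient supply to translation, read 224.2, 388.2, 229.7 and 383, so its afternoon arrays repeated closely from day to day, as did its late night arrays. A calcium-binding protein (AC225718.2) and a cadmium-responsive protein (GRMZM2G102968) complete the 15, each 2.33-fold to 2.61-fold higher late at night on day 1. For all 30 named genes both arrays of one side lay above both of the other, beside the backgrounds of 17.7% and 28.9% given above, which the way they were picked largely fixes. For all 15 lower genes the limma adjusted p was 0.378. The day 1 difference was larger in 29 of the 30.

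**Figure D3:**
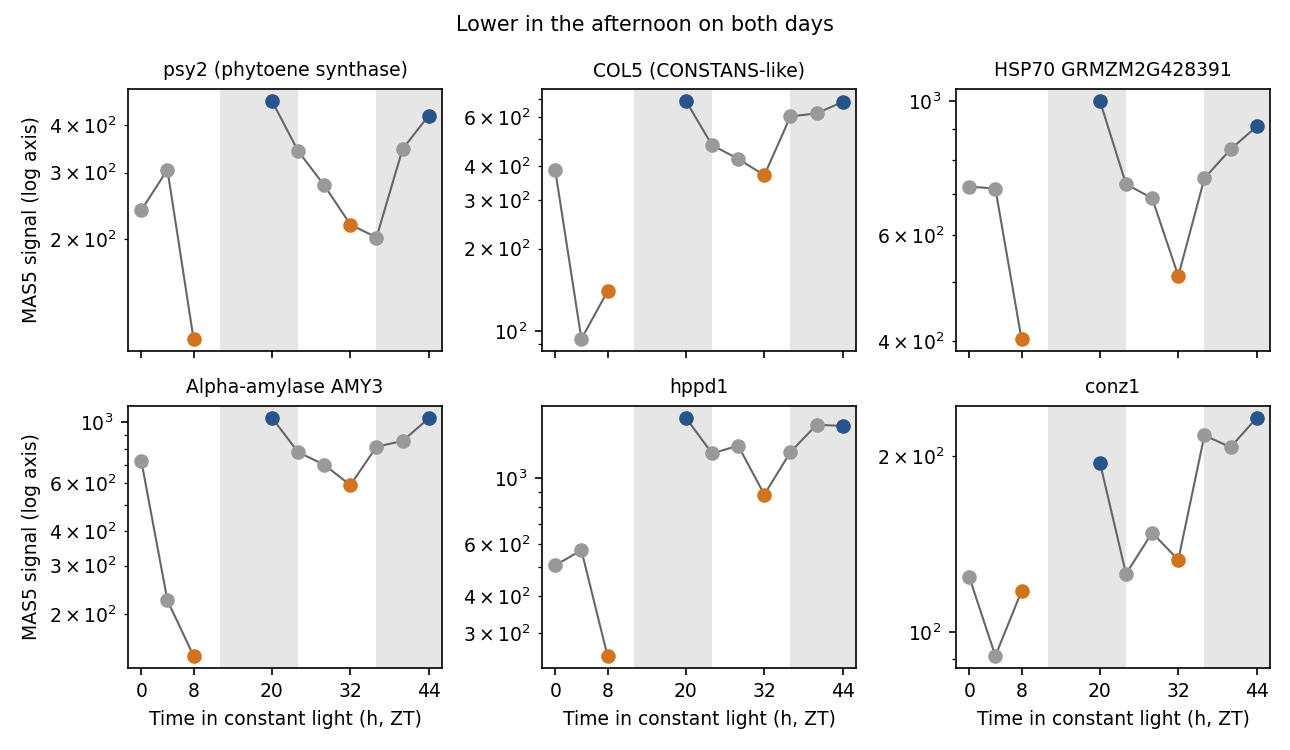
MAS5 signal on a log axis against hours in constant light for 6 genes that were lower in the afternoon on both days, 1 array per point, with subjective night shaded. Orange points are ZT8 and ZT32, blue points ZT20 and ZT44 and grey points the other 6 arrays; both orange points lie below both blue points in every panel, and conz1 is lowest at ZT4.

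The arrays not used in the comparison give the same genes a separate reading. Taking the mean log2 signal of ZT4, ZT28 and ZT36 minus that of ZT0, ZT24 and ZT40, 14 of the 15 named higher genes were positive, with a median of 0.872, and 13 of the 15 named lower genes were negative, with a median of -0.24. Over all tested probe sets 53.7% were positive and the median was 0.0133. The 1.5-fold sets, named or not, showed less, with 44 of 68 higher probe sets positive (64.7%) and 48 of 65 lower ones negative (73.8%). Of the 11 probe sets 2-fold higher in the afternoon, 7 were positive. The 4 negative ones were all unnamed and include the pair that share a target. Of the 4 unnamed probe sets 2-fold lower in the afternoon, 3 were positive, the direction opposite to their difference. Since the available names favour transcripts picked by the study as cycling, on hybridizations that include these 6 arrays, this reading is not independent for the named genes.

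Core clock genes with a probe set that passed the signal minimum numbered 5, and none was separated from its spread. GIGANTEA (gigz1a), which in Arabidopsis acts in the clock and in photoperiodic flowering, read 2784 at ZT8, 874.1 at ZT20, 1298 at ZT32 and 1071 at ZT44. Afternoon was higher on both days, 3.19-fold and 1.21-fold, with a mean log2 difference of 0.97 ± 0.84 (SE, limma adjusted p = 0.647), and the first dawn stood at 66.41. A PRR7-like regulator (GRMZM2G095727), of a family that represses the morning MYB genes, read 884.9, 411, 651.4 and 465.9. PRR59, a relative, read 252.4, 166.9, 181.4 and 167.6, and peaked at ZT36 with 259.9.

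The other clock genes were higher late at night. The PCL1-like gene GRMZM2G067702 is assigned to the evening complex factor LUX. It read 42.83 at ZT8, 183.9 at ZT20, 169.3 at ZT32 and 227.6 at ZT44. Its highest array was ZT40 at 326.1, and its mean log2 difference of -1.26 carried an SE of 1.08. MYBE1, a REVEILLE 2-like MYB gene, read 105.6, 291.2, 230.4 and 315.6, and peaked at the first dawn with 1233. Directions of 3 of the 5 rested on single arrays. Without ZT20 the PCL1-like gene gave 0.62, without ZT8 GIGANTEA gave -0.28, and PRR59 gave -0.47 without ZT8 and -0.15 without ZT44. The median of the 5 was 0.36, and -0.28 without ZT8.

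Among flowering and photoreceptor genes, 2 of 9 were higher in the afternoon on both days (22.2%) and 7 were lower (77.8%), with a median of -0.37, beside 23.8%, 38.6% and -0.04 over all tested probe sets. The blue-light receptor phot1, which drives phototropism, read 1260 at ZT8, 513.4 at ZT20, 758.7 at ZT32 and 637.4 at ZT44, a mean log2 difference of 0.77 ± 0.32. The autonomous pathway gene FCA was nearly level at 74.6, 72.67, 77.04 and 67.92. The maize floral regulator indeterminate1 (id1) was close to the signal minimum at 56.14, 61.95, 43.45 and 65.49. Their mean log2 differences, 0.11 ± 0.22 and -0.37 ± 0.23 (SE), were under 2 SE. The phytochrome A signalling gene PAT1 read 634.7, 818.4, 779 and 947.3. The histone demethylase gene LDL2 read 90.04, 94.88, 83.16 and 99.13, and its sign turned without ZT32, at 0.04. At 0.05 without adjustment, phot1 was the 1 higher gene, and 3 were lower, all CONSTANS-like, beside 4.76% and 7.44% of all tested probe sets.

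The pathway lists below were read by the count of members on each side and by their median log2 difference. As deposited, these stand beside 23.8% higher and 38.6% lower on both days and a median of -0.04 over all tested probe sets. Counts after quantile normalization stand beside 3697 higher and 3949 lower of all 12511 tested probe sets, with a median of -0.01. No member of any list passed the adjusted limma test. A gene without a gene identifier could enter through several probe sets, as hsp70-5, expA4 and pgr5 did, so members are not always separate genes. Some entries were genes that the study chose on these hybridizations. The lists were completed, and members recognized as misassigned were removed, after values were seen. The counts therefore describe these lists and are not independent evidence of a direction.

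**Figure D4:**
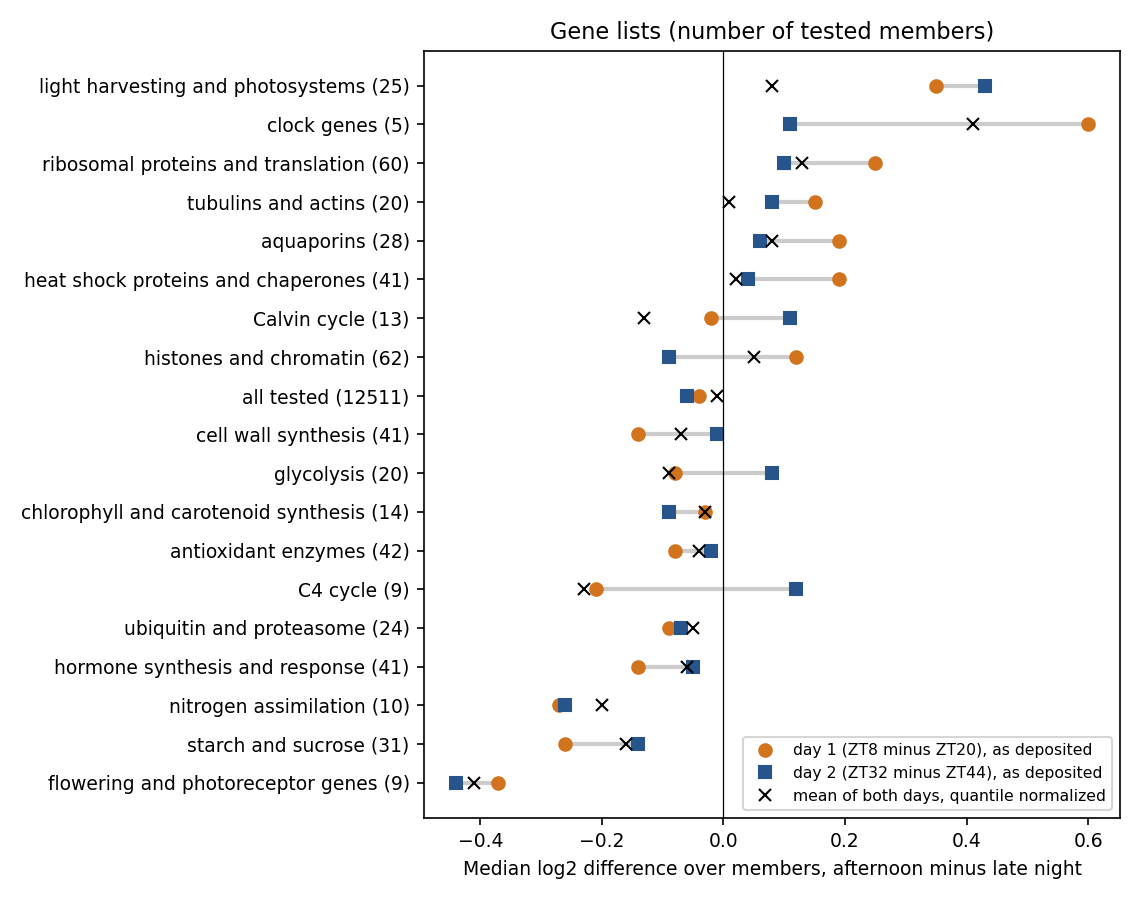
Median log2 difference, afternoon minus late night, over the tested members of each gene list, with the number of members in brackets. Circles are day 1 and squares day 2 as deposited, and crosses are the mean of both days after quantile normalization. Light harvesting stands at 0.35 and 0.43 as deposited and its cross at 0.08, and clock genes are spread widest (0.6 and 0.11). Starch and flowering genes stay below 0 on each. So do the nitrogen, ubiquitin, hormone, cell wall, antioxidant, and chlorophyll and carotenoid lists, and all tested probe sets.

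Light-harvesting and photosystem genes encode the chlorophyll-binding antennae and the proteins around the reaction centres. Of 25, 16 were higher on both days and 4 lower, and the median was 0.37. LHB1B2 (GRMZM2G429955), an antenna protein of photosystem II, read 16090 at ZT8, 8611 at ZT20, 13088 at ZT32 and 7968 at ZT44. The antenna gene cab-m1 read 14650, 8164, 12123 and 7884, and LHCA3, of photosystem I, read 11381, 7453, 11080 and 7299. These are among the brightest probe sets on the array, and antenna genes are close copies whose probes can cross-hybridize. On the other side, the ferredoxin-NADP reductase L-FNRI read 1369, 2271, 1885 and 2304, 1.66-fold and 1.22-fold higher late at night.

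The antenna differences were smaller after quantile normalization. Among the 200 brightest tested probe sets, antenna genes included, the median log2 difference was 0.22 on day 1 and 0.31 on day 2, and after quantile normalization it was -0.02 and 0. With all tested probe sets split into 10 groups by signal, group 8 stood at -0.12 and -0.06 as deposited. After quantile normalization the list's median was 0.08, the counts were 15 higher and 5 lower, and members past 0.05 without adjustment went from 13 higher and 2 lower to 6 and 4. Over all 12511 tested probe sets, those past 0.05 were 4.76% and 7.44% as deposited, and 676 and 680 after quantile normalization. LHB1B2 went from 0.9 and 0.72 on the 2 days to 0.51 and 0.3, and LHCA3 from 0.61 and 0.6 to 0.33 and 0.25. Whether transcript abundance or array response set the level of the brightest signals was not tested.

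**Figure D5:**
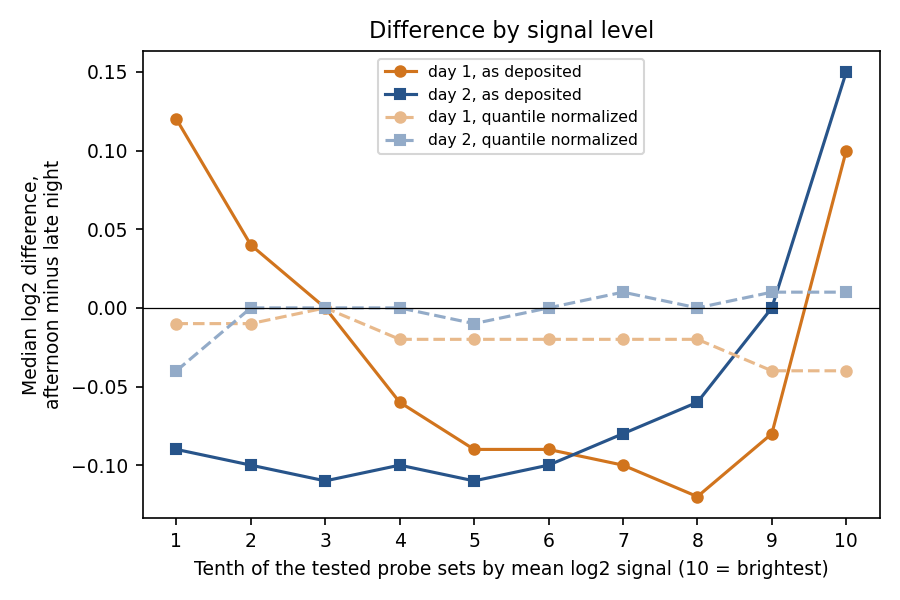
Median log2 difference, afternoon minus late night, over tested probe sets in 10 groups of equal size by mean log2 signal, from the dimmest (1) to the brightest (10). Solid lines are the deposited signals and dashed lines the quantile-normalized ones, for each day; as deposited group 10 stands at 0.1 and 0.15 and group 8 at -0.12 and -0.06, and the dashed lines stay between -0.04 and 0.01.

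Carbon fixation genes, also bright, turned with the scaling. Calvin cycle genes numbered 13, with 6 higher and 3 lower on both days as deposited and 0 higher and 9 lower after quantile normalization, and their median went from 0.04 to -0.13. For the C4 cycle, in which mesophyll cells fix carbon dioxide into acids passed to the bundle sheath, 4 of 9 were higher and 3 lower, and 0 and 7 after normalization. The 9 include PDK1 (GRMZM2G107196), lower on both days as deposited. It shares an alias with C4 ppdk, so its place in the list is uncertain. The C4 carboxylase pep1 read 11497 at ZT8, 9568 at ZT20, 10705 at ZT32 and 8644 at ZT44, a mean log2 difference of 0.29 that became -0.07. The Rubisco small subunit rbcS-m3 read 8937, 7472, 8380 and 5867. A transketolase (GRMZM2G033208) was lower in the afternoon at 3025, 4233, 3500 and 3892.

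Genes in the list for ribosomal proteins and translation were mostly somewhat higher in the afternoon. Of 60, 40 (66.7%) were higher on both days and 5 lower, with a median of 0.22, and after quantile normalization 35 and 8 with a median of 0.13. RPL18C of the large subunit read 4263 at ZT8, 2984 at ZT20, 3167 at ZT32 and 2584 at ZT44. The acidic stalk protein gene rpp2a-3 read 1436, 706, 919.6 and 807.7, and rps13 of the small subunit read 2593, 1691, 2027 and 1755. The difference was larger on day 1, with medians of 0.25 and 0.1 on the 2 days. At 0.05 without adjustment, 11 of the 60 (18.3%) were higher and 0 lower, beside 4.76% and 7.44% of all tested probe sets. After quantile normalization these were 10 and 2, beside 676 and 680 of all 12511 tested.

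Water channels leaned to the afternoon, with 16 of 28 aquaporins higher on both days and 2 lower, and a median of 0.11. After quantile normalization 15 were higher and 5 lower, with a median of 0.08. At 0.05 without adjustment, 2 of the 28 (7.14%) were higher and 0 lower, beside 4.76% and 7.44% of all tested probe sets. Beyond the tonoplast genes above, NIP2-2, of the subfamily that includes silicon channels in grasses, read 3035 at ZT8, 1672 at ZT20, 3311 at ZT32 and 2222 at ZT44. Tubulins and actins showed 10 of 20 higher and 2 lower, which became 5 and 6 after quantile normalization. The beta-tubulin TUB1 read 2545, 1588, 2352 and 1985.

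Heat shock proteins and chaperones split. Of 41, 16 were higher on both days, 9 lower and 16 went opposite ways, with a median of 0.1. At 0.05 without adjustment, 5 were higher and 4 lower, beside 4.76% and 7.44% of all tested probe sets. The DNAJ genes GRMZM2G059502 and GRMZM2G399136 lay at one end and the HSP70 gene GRMZM2G428391 at the other. Members of both families differed in direction or size. The HSP70 genes GRMZM2G310431 and GRMZM2G137696 had mean log2 differences of -0.68 and -0.03. More DNAJ genes were higher than lower on both days. Among the higher was GRMZM2G134476, 2.53-fold and 1.28-fold, a mean log2 difference of 0.85 ± 0.84 (SE). The DNAJ gene GRMZM2G124644 had 0.03. The DNAJ genes lower on both days were GRMZM2G372870, at 93, 185.6, 126.8 and 172.5, and GRMZM2G134917, assigned to ATJ2, at 1266, 2048, 1732 and 1965. An HSP90 gene, HSP81-4 (GRMZM2G069651), read 606.4, 990.6, 868.3 and 1035, while a class I small heat shock protein gene (GRMZM2G158232) read 1018, 784.3, 1047 and 742.9. Of the genes in this paragraph, GRMZM2G059502, GRMZM2G399136, GRMZM2G428391 and GRMZM2G372870 come from the naming rule. The others were chosen after their values were seen.

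Nitrogen assimilation genes were lower on both days in 5 of 10 and higher in 1, with a median of -0.18. Nitrite reductase, which makes ammonium in the plastid, read 215.6 at ZT8, 395.5 at ZT20, 228.7 at ZT32 and 336.9 at ZT44. The cytosolic glutamine synthetase gln6 read 1038, 1912, 1664 and 2107, and gln3 went the other way at low signal, 64.76, 44.42, 49.97 and 24.53. The annotation assigns gln3 and gln6 to a single gene model, so at least one of these assignments is uncertain.

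Cell wall synthesis genes were lower on both days in 17 of 41 and higher in 8, near the background of 38.6%, and their median of -0.04 matched that of all probe sets. The cellulose synthase CesA-1 read 1543 at ZT8, 2444 at ZT20, 1868 at ZT32 and 2188 at ZT44. Ubiquitin and proteasome genes gave 5 higher and 12 lower of 24. Hormone genes gave 13 and 19 of 41, with the abscisic acid hydroxylase CYP707A4, which inactivates that hormone, at 1577, 399.3, 616.9 and 435.3. Auxin response factor 1 was lower in the afternoon, at 704, 1236, 915 and 1199.

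Antioxidant genes, at 9 higher and 15 lower of 42, included the catalase CAT3, which removes hydrogen peroxide. It read 6619 at ZT8, 2411 at ZT20, 4066 at ZT32 and 2602 at ZT44, 2.75-fold and 1.56-fold higher in the afternoon, a mean log2 difference of 1.05 ± 0.24 (SE). Glycolysis genes gave 8 higher and 6 lower of 20, and 3 and 8 after quantile normalization. The cytosolic dehydrogenase gpc4 read 1094, 458.7, 432.6 and 411.4, so its day 2 arrays were nearly level and the groups overlapped. Histones and chromatin genes gave 14 higher (22.6%) and 21 lower (33.9%) of 62, near the backgrounds of 23.8% and 38.6%. After quantile normalization they gave 22 and 12, beside 3697 and 3949 of all 12511 tested probe sets. As deposited, their medians on the days had opposite signs, 0.12 and -0.09.

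Tissue markers and array quality were set beside these values. Summed mesophyll signals (6 genes) were 46762 at ZT8, 46610 at ZT20, 48770 at ZT32 and 41794 at ZT44, within the 38965 to 52768 of all arrays, and bundle sheath signals (4 genes) were 30431, 28821, 30843 and 23961. Both leaf cell types were thus present at high signal on every array. The mesophyll list includes PDK1 (GRMZM2G107196), which shares an alias with C4 ppdk, so its place there is uncertain. Its part of the sum was small, at 466.5, 592.3, 550.2 and 576.2. Seed storage signals (2 genes, 1 tested) were low but higher in the afternoon on each day, at 106.9, 87.7, 80.7 and 55.2, with 49.7 to 106.9 over all arrays. The tested one, the zein gene zp27, had an unadjusted p of 0.0377 (limma adjusted p = 0.402), and its part in the results was not tested. The meristem genes kn1, at 104.8, 48.16, 62.77 and 39.12, and lg3, at 205.9, 96.05, 132.1 and 113.4, were higher in the afternoon, while knox7 was lower at 308.6, 410.8, 347.8 and 399.1. The summed meristem signal was 619.4, 555, 542.6 and 551.7, with 507.6 to 619.4 over all arrays. Genes of dividing cells (18 tested) summed to 7072, 6111, 6221 and 6635, and the 2 genes of the root list, bx1 and pip2-5, to 6524, 7149, 7733 and 7301. The part of tissue composition in the differences above was not tested.

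Median signals of the 10 arrays lay between 190 and 215, and 69.1% to 70.3% of probe sets reached 50. The ratio of 3′ to 5′ actin probe sets, which grows as RNA degrades or synthesis stops short, was 10.3 at ZT8, 11.5 at ZT20, 7.89 at ZT32 and 9.55 at ZT44. It was lower on the afternoon array of each day, and its part in the results was not tested.

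The test for a difference between the days called 0 of 12511 probe sets (background 0%), with 623 past 0.05 without adjustment and a smallest adjusted p of 0.963 (limma). With 2 residual degrees of freedom it had little power, and it does not show that the days were alike. The lowest p among the named genes was that of hppd1, whose log2 difference was closer to 0 on day 2 by 1.9 (unadjusted p = 0.000642, limma). DNA recombination and replication genes were also among those with the lowest p. The recombinase gene rad51a, which acts in DNA strand exchange, read 239.9 at ZT8 and 94.56 at ZT20, then 127.7 at ZT32 and 152.4 at ZT44. ETG1 (GRMZM2G347190), a partner of the replicative helicase, read 686.8, 374, 405.8 and 503.4. Both were higher in the afternoon on day 1 and lower on day 2.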

How the data were processed

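Affymetrix GeneChip Maize Genome Array signals of 10 time points, 1 array each, were used. The authors deposited MAS5 signal intensities on a linear scale; the MAS5 version and any scaling target are not given in the sources used here, and the study's own waveform analysis used RMA values of the same hybridizations. The 179 control probe sets of 17734 were left out. Signals under 1 (2840 values) were set to 1 and log2 was taken. Probe sets with at least 50 on at least 3 arrays were tested in limma 3.58.1 (R 4.3.3, lmFit, eBayes with an intensity trend) with subjective hour and day as terms over all 10 arrays, contrast ZT8 and ZT32 minus ZT20 and ZT44, two-sided, Benjamini-Hochberg at 0.05. The residual has 3 degrees of freedom. Log2 differences are the mean of the 2 same-day differences. The fit was tested on simulated data (10 simulations, 200 of 12511 probe sets changed, 3.21% of calls false). A second limma fit added the interaction with day.

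Named genes were, per direction, the 15 with a name, a mean signal of at least 200 on the higher side and the largest smaller-of-both-days difference, 1 probe set a gene; all clock and flowering genes; up to 4 members of each list and up to 4 day differences with the lowest p. Lists used, per gene, the brightest probe set, where probe sets could be matched to a gene identifier. Probe sets without one were kept apart, so a gene such as hsp70-5, expA4 or pgr5 entered through several. Of 17734 probe sets, 3097 had a name. The comparison, the genes and the lists were chosen with earlier results of these data known. Promoter motifs were not searched. No interval was computed for signals, since 1 array a time point limits their precision. Alternatives were quantile normalization, median centring, other filters (none, 100), a pseudocount of 32, other fits and leaving out each array.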

Additional observations from a re-analysis of the deposited data

Results flagged for a closer look

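The mitochondrial chaperonin gene CPN60II, which folds imported proteins, had opposite same-day differences. Its signal was 423.7 at ZT8 and 210.5 at ZT20, then 212.6 at ZT32 and 338.3 at ZT44, a log2 difference of 1.01 on day 1 and -0.67 on day 2. The difference between the days was not called by limma (unadjusted p = 0.00198, adjusted p = 0.963).

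At the level of single arrays, 8 probe sets were at least 2-fold higher in the afternoon on day 1 and at least 2-fold lower on day 2, and 0 showed the reverse. None of the 8 has a gene name or function here. One of them read 4915 at ZT8, 1126 at ZT20, 846.9 at ZT32 and 1760 at ZT44. The difference between the days was tested only in the fit over all probe sets, which called none.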

How the results depend on the processing

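No paired analysis by replicate number was possible because all titles carry the same number; the day entered as a term. The count of limma calls was 0 in each direction under every alternative fitted, with smallest adjusted p from 0.0873 (without ZT44) to 0.979 (without ZT20); without the day term 234 probe sets were higher and 516 lower at 0.05 without adjustment, and with the 4 arrays and day as a block 624 and 989. For the difference between the days the count was 0 under all 3 fits, with 623 to 825 unadjusted. The 11 probe sets 2-fold higher on both days became 222 with no signal filter, 6 with a pseudocount of 32, 68 at 1.5-fold and 2 at 3-fold. The 4 lower became 172, 1, 65 and 0, and also 2 with median centring and 2 where both arrays of a side had to be 2-fold apart from both of the other. Under quantile normalization these counts were 13 and 3, of which 11 and 3 were shared. Counts over both days have no value without one array. Of 1914 values tried for 120 genes, 1887 kept their direction and 27 reversed, in 16 genes. The 120 are those of the naming rule and 6 of the genes chosen after their values were seen. Further genes chosen that way were not in this count. After quantile normalization, with all arrays or with 4 (added after seeing the data), pep1 was -0.07, C4 ppdk -0.13, tua4 -0.06, rbcS -0.13, the malic enzyme me3 -0.09 and bx1 -0.17. Without one array, reversals had ranges of -3.15 to 0.62 for the PCL1-like gene, -0.47 to 1.19 for PRR59, -0.28 to 2.23 for GIGANTEA, -0.37 to 0.04 for LDL2, -0.43 to 0.77 for CPN60II, -0.02 to 1.11 for rad51a, -0.15 to 0.72 for ETG1, -0.91 to 0.01 for the aldolase GRMZM2G155253, -0.41 to 0.04 for mdh6, -0.57 to 0.12 for Rubisco activase, -0.01 to 0.29 for me3 and -0.12 to 0.2 for bx1. Causes were not tested. Of 383 list medians tried, 365 stayed within the spread and 18 moved. Signals near 50 limit folds of dim probe sets.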
